A study of Mus musculus with 13 samples.

Results

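Mitochondrial ribosomal protein genes were described in RNA-Seq of whole parametrial white adipose tissue (pmWAT) from female mice with and without an inducible adipocyte Cre acting on floxed Lmna. Members were the protein-coding genes named Mrpl or Mrps followed by a number, with at least 10 counts summed over the 13 libraries. There were 77 of them among 33618 gene identifiers, 48 named for the large subunit and 29 for the small subunit, and all 77 were among the 16753 genes tested. Mrpl53 was not analysed here. The fl/fl group held 7 mice carrying Lmna fl/fl alleles and no Cre, and the iADKO group held 6 mice carrying Lmna fl/fl with Adipoq-CreERT2+/-. Both groups received tamoxifen at 50 mg/kg on 5 consecutive days at 12 to 14 weeks of age and were dissected 2 weeks posttamoxifen. The Adipoq promoter limits Cre to adipocytes, whereas the RNA came from all cells of the depot.

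The mitochondrial ribosome is built from RNAs encoded in mitochondrial DNA and proteins encoded in the nucleus, which are made on cytosolic ribosomes and imported. It translates the few proteins that mitochondrial DNA encodes, all of them subunits of the respiratory chain and ATP synthase. The small subunit binds the mRNA and reads its codons, and the large subunit joins amino acids and releases the chain through an exit tunnel that faces the inner membrane. Many of its proteins descend from bacterial ribosomal proteins, and others are found only in mitochondria. White adipocytes use mitochondrial metabolism in lipid synthesis and fatty acid oxidation.

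The libraries held between 18854223 and 19776491 counts. Lmna, the targeted gene, ranged from 74.7 to 98.5 CPM (counts scaled to a common library size) in fl/fl and from 80.1 to 109 CPM in iADKO, so the groups overlapped and the gene-level count was not lower in iADKO (log2 fold change 0.19 ± 0.08 SE, edgeR adjusted p = 0.0785). Gene-level counts do not separate the loxP-flanked exons from the rest of Lmna, and genotypes rest on the labels. All 8 adipocyte markers were detected in every library. One control mouse, fl/fl replicate 5, stood apart: its macrophage markers averaged 8.48 on the log2 CPM scale against 7.31 to 8.08 in the other controls, its adipocyte markers averaged 9.94 against 10.43 to 10.82, and its 10 most abundant genes took 9.54% of counts against 12.7% to 14.3%. In iADKO replicate 6 the macrophage mean of 7.91 was the lowest of its group and the adipocyte marker mean of 9.95 the highest.

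Transcripts of both subunits were modestly lower in iADKO pmWAT relative to the typical gene. CPM here are scaled by TMM (trimmed mean of M values), which sets the typical gene to no change, and a gene was called at an adjusted p under 0.05 in edgeR's quasi-likelihood test. Of the 48 large subunit genes, 18 were called lower, and of the 29 small subunit genes, 13 were called lower. Together these were 31 of 77, or 40.3%, where 16.3% of all genes tested were called lower. None of the 77 was called higher by edgeR, by DESeq2 or by limma, where 14.1% of all genes tested were called higher in edgeR. At an unadjusted p under 0.05, 44 members were lower and 0 higher. Of all 16753 genes tested, 7145 passed that unadjusted level in either direction. The median log2 fold change was -0.19 over the large subunit, with a range of -0.47 to 0.12, and -0.21 over the small subunit, with a range of -0.55 to -0.01, while the median of all genes was 0.03. The medians correspond to changes of -12.0% and -13.4%. In bulk tissue, fewer cells of a type and less RNA per cell cannot be told apart.

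**Figure D1:**
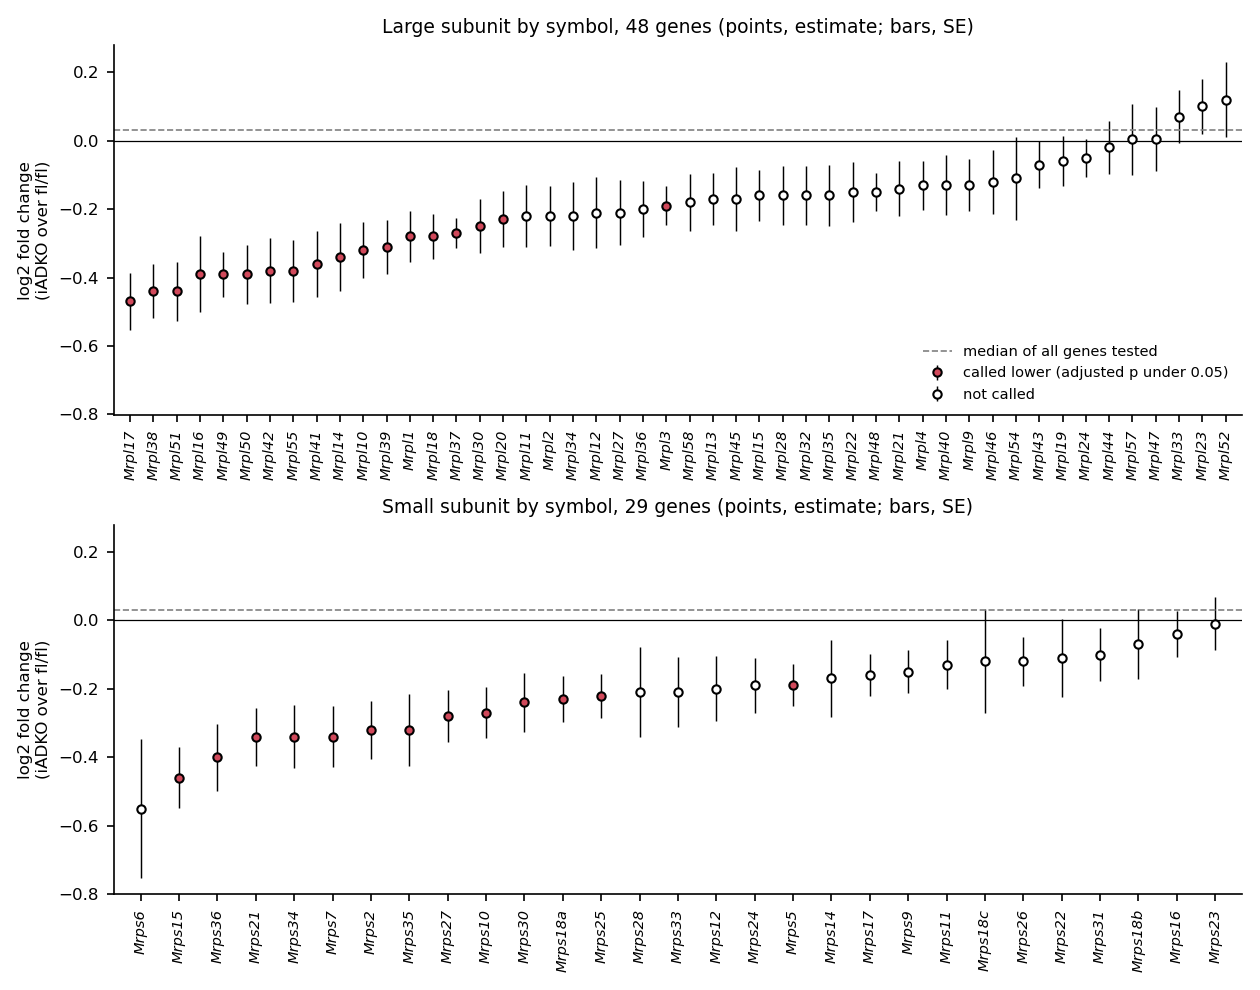
Log2 fold change (y axis, iADKO over fl/fl, TMM scale) of each of the 77 members (x axis) with its standard error as a bar, the large subunit above and the small subunit below. Filled points passed the adjusted threshold, 18 above and 13 below, and 72 of the 77 estimates lie under 0. With libraries scaled by their totals alone, the medians move to 0.02 and -0.00462, as all genes shift up together.

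The direction depended on how libraries were scaled. The members took between 0.186% and 0.224% of all counts in fl/fl and between 0.192% and 0.222% in iADKO, so as a share of the library the groups overlapped fully. With library totals as the only scaling, 5 large subunit genes were called lower and 5 higher, 1 small subunit gene was called lower and 1 higher, and the median of all genes moved from 0.03 to 0.24. Of all calls, 53.6% were lower with TMM and 14.7% with library totals alone. Relative to the median of all genes, the large subunit stood at -0.22 and the small subunit at -0.24 under both scalings. The fold changes below are on the TMM scale and are to be read as relative to the typical gene.

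In single mice, the mean log2 CPM over the large subunit genes was lowest at 4.49, had a median of 4.80 and was highest at 4.89 in fl/fl, and ran from 4.46 through a median of 4.59 to 4.73 in iADKO. Over the small subunit genes it ran from 4.25 through 4.57 to 4.65 in fl/fl and from 4.21 through 4.30 to 4.50 in iADKO. The groups overlapped for both subunits. For the large subunit, fl/fl replicate 5 fell among the iADKO mice and the other 6 controls lay above all 6 iADKO mice. For the small subunit, fl/fl replicate 6 at 4.49 also lay below iADKO replicate 6 at 4.50. Fl/fl replicate 5 held the lowest fl/fl value for 70 of the 77 members, and iADKO replicate 6 held the highest iADKO value for 52. Without fl/fl replicate 5, 32 large and 17 small subunit genes were called lower, and without iADKO replicate 6, 22 and 17. Calls over all genes tested rose as well, from 2737 lower and 2367 higher with every mouse kept. They became 3285 and 3319 without fl/fl replicate 5, and 3060 and 2677 without iADKO replicate 6. Of the 31 members called, 25 were called lower with each mouse left out in turn. The subunits kept their level relative to each other: the large subunit mean exceeded the small by 0.24 ± 0.02 in fl/fl (SD, n = 7) and by 0.26 ± 0.03 in iADKO (SD, n = 6).

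**Figure D2:**
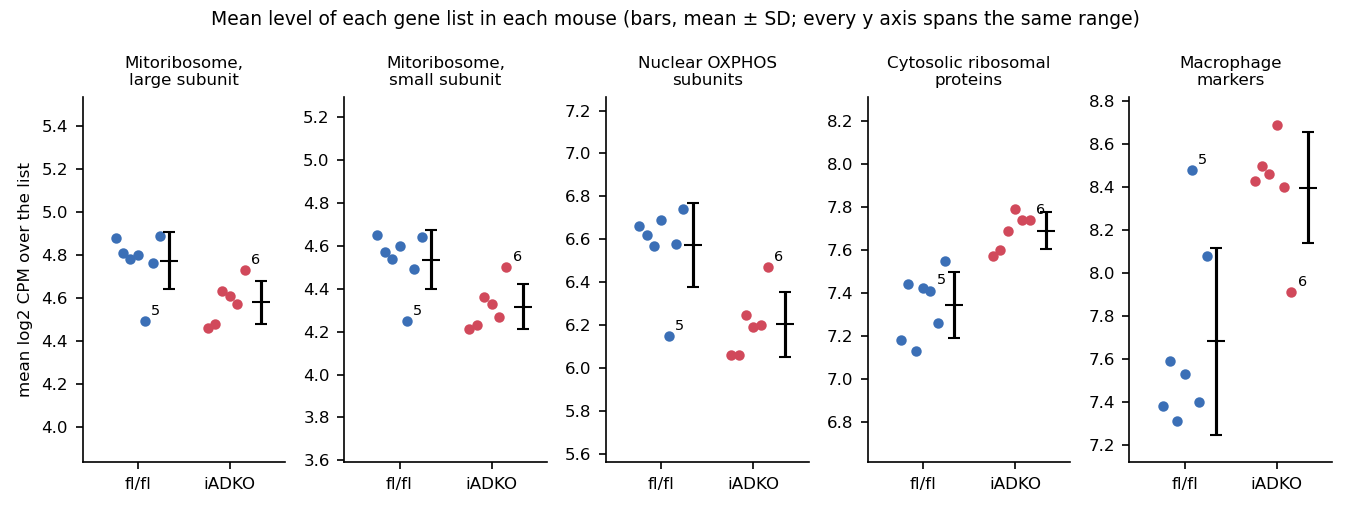
Mean log2 CPM (y axis) over 5 gene lists in each fl/fl (blue) and iADKO (red) mouse, with group mean ± SD as black bars and fl/fl replicate 5 and iADKO replicate 6 numbered. In both mitoribosome panels and the OXPHOS panel the control numbered 5 sits among the iADKO mice, and in the cytosolic panel every iADKO mouse is above every control. The level of a mitoribosome list relative to zero change depends on the TMM scaling, and the spacing between lists within a mouse does not.

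Animal numbers in the library names fell into separate series, and only 2 of these held both genotypes. In the series from 722 to 727, with 2 fl/fl mice including replicate 5 and 2 iADKO mice including replicate 6, the median difference in log2 CPM was 0.03 over the large subunit genes and -0.02 over the small. In the series from 747 to 750, with 3 fl/fl mice and 1 iADKO mouse, both medians were -0.34. With the series as a block, 0 large and 0 small subunit genes were called by edgeR, 10 and 6 passed an unadjusted p under 0.05, and only 14 genes of all those tested were called lower and 40 higher. The medians under this block were -0.14 over the large and -0.15 over the small subunit genes, against -0.19 and -0.21 without it. Series without both genotypes add nothing to the genotype estimate of that fit. Within the 722 to 727 series alone the lower member levels did not hold, and genotype and series cannot be fully told apart.

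The strongest falls among the called genes were in proteins of different places in the ribosome. Mrpl17, which belongs to the exit tunnel region, measured 39.3 CPM in the lowest fl/fl mouse, 47.2 at the median and 55.6 in the highest, and 30.5, 35.3 and 38.5 CPM in iADKO. Every iADKO mouse was below every fl/fl mouse, and the log2 fold change was -0.47 ± 0.08 (SE, adjusted p = 0.00146). The same separation was seen for Mrpl37, a surface protein of the large subunit singled out after its values were seen, which ran from 53.8 to 62.2 CPM in fl/fl and from 47.5 to 52.5 CPM in iADKO. These were the only 2 members whose groups did not overlap, where 3.93% of all genes tested had every iADKO value below every fl/fl value.

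Mrps15, a small subunit protein at a bridge between the subunits, ran from 31.9 through 36.9 to 43.4 CPM in fl/fl and from 23.1 through 26.6 to 32.7 CPM in iADKO. Only iADKO replicate 6 reached into the fl/fl range, and the log2 fold change was -0.46 ± 0.09 (SE, adjusted p = 0.00225). Mrpl38, in the central protuberance, ran from 37.3 through 47.9 to 49.7 CPM in fl/fl and from 31.0 through 33.1 to 41.2 CPM in iADKO. It fell by 0.44 ± 0.08 on the log2 scale (SE, adjusted p = 0.0015), again with 5 of 6 iADKO mice below all controls. Mrpl51, another large subunit protein found only in mitochondria, fell by 0.44 ± 0.09 (SE, adjusted p = 0.00233).

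As examples, the sequence before the starts of Mrpl17 and Mrpl38 is shown, with the core of the site for GABP and other ETS factors in capitals (CCGGAAG, or its reverse complement). Both hold this core, which was not found in most members. GABP is a known activator of nuclear genes for mitochondrial proteins. Positions are on GRCm39 before the GENCODE canonical start, and both genes lie on the minus strand, at chr7:105460373-105460622 and chr11:116029701-116029950.
Mrpl17: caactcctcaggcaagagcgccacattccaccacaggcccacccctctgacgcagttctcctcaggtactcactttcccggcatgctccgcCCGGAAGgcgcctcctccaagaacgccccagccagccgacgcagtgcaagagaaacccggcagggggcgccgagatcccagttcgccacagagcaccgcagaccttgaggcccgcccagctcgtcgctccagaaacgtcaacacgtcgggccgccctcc
Mrpl38: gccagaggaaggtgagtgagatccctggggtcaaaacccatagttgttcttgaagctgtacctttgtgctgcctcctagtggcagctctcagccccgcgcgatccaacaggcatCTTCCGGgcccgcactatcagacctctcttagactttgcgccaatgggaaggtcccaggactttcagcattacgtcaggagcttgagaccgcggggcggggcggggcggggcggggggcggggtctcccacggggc
Over windows from 250 bases before to 50 bases after the start, searched on both strands, this core was found in 23 of 77 members (29.9%), against 14.1% of all protein-coding genes tested. The NRF1 core GCGCATGCG was found in 5 members (6.49% against 2.93%), the YY1 core AAGATGGCG in 4 (5.19% against 1.93%), and the ERR core TCAAGGTCA in 0 (against 0.347%). The general promoter letters gave lower shares in members for the Sp1 core GGGCGG (42.9% against 55.8%), the E-box CACGTG (6.49% against 9.59%) and CCAAT (33.8% against 39.1%), and a higher one for TATAAA (10.4% against 8.36%). Of the members called lower, 32.3% held the ETS core, and of those not called, 28.3%. A match of letters does not show that a factor binds there.

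The other genes among the strongest falls were Mrps36, Mrpl49, Mrpl16, Mrpl50, Mrpl42 and Mrpl55, with log2 fold changes of -0.40 to -0.38 and adjusted p-values of 0.000896 to 0.016. Mrps36 carries a ribosomal name but is a subunit of the oxoglutarate dehydrogenase complex of the citric acid cycle. It ran from 9.57 through 12.4 to 13.9 CPM in fl/fl and from 8.30 through 8.95 to 11.1 CPM in iADKO, with 4 of 6 iADKO mice below all controls. It has 3 annotated processed pseudogenes that could share its reads, so its value is uncertain. Mrpl42 was also among the 3 most abundant members per kilobase of transcript, at 49.0 CPM per kb beside Mrpl20 at 53.4 and Mrps21 at 40.5.

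The smallest falls that still passed the test were those of Mrpl3 and Mrps5, each -0.19, followed by Mrps25 at -0.22 and by Mrps18a and Mrpl20 at -0.23. Mrps25 and Mrps18a were called with each mouse left out. Mrpl3 lost its call without fl/fl replicate 1 or iADKO replicate 2 (adjusted p up to 0.0559), Mrps5 with any of 8 mice left out (up to 0.0738), that is all but fl/fl replicates 4 to 7 and iADKO replicate 6, and Mrpl20 with any of 10, all but fl/fl replicate 5 and iADKO replicates 3 and 6 (up to 0.0959). Mrpl3 is a core protein of the large subunit, and Mrps5 lies along the mRNA channel. Both Mrpl3 and Mrps5 had estimates of 0.02 when libraries were scaled by their totals alone. Mrps5 measured 38.2 to 48.0 CPM in fl/fl and 33.3 to 40.6 CPM in iADKO on the TMM scale, with 5 of 6 iADKO mice below all controls. The lowest estimate of all belonged to Mrps6, a platform protein singled out after its values were seen, which did not pass (log2 fold change -0.55 ± 0.20 SE, adjusted p = 0.0523). Mrps6 shares exonic sequence on the same strand with Slc5a3, which encodes an inositol transporter, and spread from 12.3 to 30.9 CPM within fl/fl alone.

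**Figure D3:**
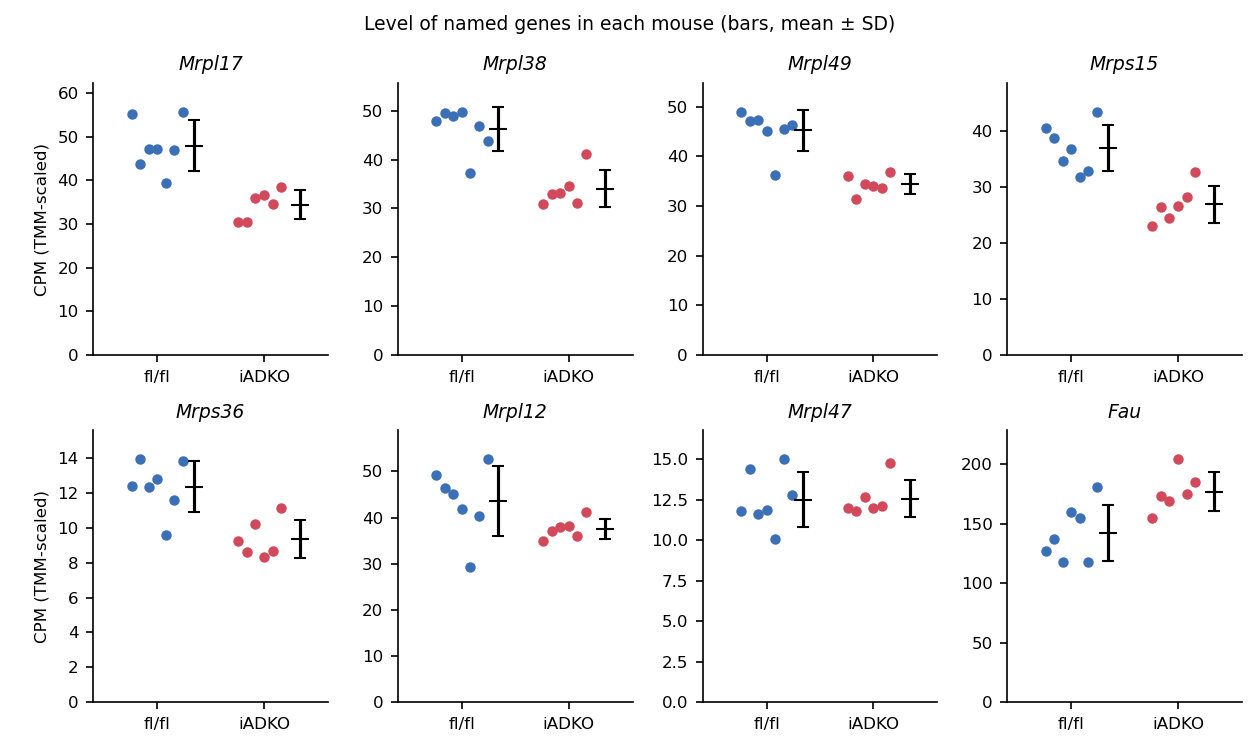
CPM on the TMM scale (y axis, starting at 0) of 7 members and of Fau in each fl/fl (blue) and iADKO (red) mouse, with group mean ± SD as black bars. Mrpl17 separates the groups, Mrpl38, Mrpl49 and Mrps15 overlap through 1 iADKO mouse, Mrpl12 and Mrpl47 overlap widely, and Fau is higher in iADKO on this scale.

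At the other end, 5 members had estimates above 0, all in the large subunit and none called: Mrpl57, Mrpl47, Mrpl33, Mrpl23 and Mrpl52, the last at 0.12. The 3 estimates nearest 0 were those of Mrpl57, Mrpl47 and Mrps23. Mrpl47, at the rim of the exit tunnel, ran from 10.1 through 11.9 to 15.0 CPM in fl/fl and from 11.8 through 12.0 to 14.8 CPM in iADKO, so the iADKO mice lay within the control range. Mrps23, a surface protein of the small subunit, ran from 31.1 through 39.9 to 43.9 CPM and from 35.0 through 38.7 to 43.4 CPM, also within the control range. The standard errors of the members were 0.0446 to 0.202, with a median of 0.0845, and set the size of difference that could be called.

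Several members with a special function did not pass the test. Mrpl12, the stalk protein that contacts translation factors and also binds the mitochondrial RNA polymerase, ran from 29.4 through 45.1 to 52.6 CPM in fl/fl and from 35.0 through 37.6 to 41.2 CPM in iADKO. Fl/fl replicate 5 was the lowest of all 13 mice for this gene, and the log2 fold change was -0.21 ± 0.10 (SE, adjusted p = 0.133). Without that mouse Mrpl12 was called lower, at -0.29 (adjusted p = 0.00352). For Mrpl58, a release-factor-like hydrolase built into the ribosome, the log2 estimate was -0.18 (adjusted p = 0.108), and without fl/fl replicate 5 it was called at -0.24 (adjusted p = 0.00644). Mrpl45, which anchors the ribosome to the inner membrane, had -0.17 (adjusted p = 0.188), and was called at -0.23 without iADKO replicate 6 (adjusted p = 0.0484). Mrpl44, an RNase III-like protein beside the exit tunnel, had -0.02 (adjusted p = 0.892) and Mrps12 of the decoding centre -0.20 (adjusted p = 0.128).

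The 3 paralogues of S18 gave different values. Mrps18a, whose protein sits in the large subunit, was called lower at -0.23 ± 0.07 (SE, adjusted p = 0.0193). Mrps18b had an estimate of -0.07 ± 0.10 and Mrps18c one of -0.12 ± 0.15, neither called, and no test between the paralogues was made. Mrps18c had the lowest level of all members, 0.841 CPM per kb. Mrps30, the other protein with a small subunit name that sits in the large subunit, was called lower at -0.24 ± 0.09 (SE, adjusted p = 0.0475), a call kept only without fl/fl replicate 5 or iADKO replicate 6 and lost with any of the other 11 mice left out (adjusted p up to 0.11).

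With Mrps18a and Mrps30 moved to the large subunit and Mrps36 left out, 20 of 50 large and 10 of 26 small subunit genes were called lower, with medians of -0.19 and -0.20. Grouped by origin, 16 of 46 members with a bacterial counterpart and 14 of 30 without one were called, both with a median of -0.20. By place in the ribosome, 3 of 8 genes of the central protuberance, 2 of 5 of the stalks, 3 of 8 of the small subunit head and 1 of 4 of the platform were called lower. Around the exit tunnel 1 of 8 was called, Mrpl17 itself, and the median there was -0.09. Over all genes tested 16.3% were called lower, and sets this small do not allow a contrast between places. The 2 genes of the peptidyl transferase centre, Mrpl2 and Mrpl27, stood at -0.22 and -0.21 and did not pass in edgeR after adjustment, although both passed an unadjusted p under 0.05 and 1 of the 2 was called by DESeq2.

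Members had shorter transcripts than other genes, with a median of 1820 bases against 3480 for all protein-coding genes tested, and 5 exons against 9. Per kilobase they were more abundant, with a median level of 13.3 CPM per kb against 7.41. Across the 77 genes the log2 fold change had a Spearman correlation of -0.33 with mean log2 CPM and of 0.03 with transcript length, as a description over genes that share libraries. Members lay on 17 chromosomes, 11 of them on chromosome 11. Exons of 56 members overlap an annotated gene on the opposite strand and those of 8 a gene on the same strand. The libraries were strand-specific but the strand setting of the counting is not given in the sources used here, so reads of such neighbours may not be told apart.

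Members often started close to another gene on the opposite strand. A protein-coding start on that strand lay within 1000 bases, upstream or downstream, for 27 of 77 members (35.1%), against 12.4% of the protein-coding genes tested. Where it lay downstream, as for Mrpl47 and Ndufb5, the starts overlap instead of lying back to back. Of these 27, 12 were called lower, with a median of -0.21. Among the 26 partners tested, Mrps11 and Mrpl46 included, 3 were called lower and 2 higher, with a median of 0.04. The shares over all genes tested were 16.3% lower and 14.1% higher, and the partner counts are not read as a result about partners. Some partners also serve the mitochondrion, such as Sars2, a mitochondrial seryl-tRNA synthetase that starts 129 bases from Mrps12. The pairs named here were chosen after their values were seen.

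Mrpl49 and Fau were called in opposite directions. Fau encodes a precursor of a cytosolic small subunit protein, and its start lies 52 bases from that of Mrpl49. Mrpl49 ran from 36.3 through 46.3 to 48.9 CPM in fl/fl and from 31.4 through 34.3 to 36.9 CPM in iADKO, with 5 of 6 iADKO mice below all controls. It fell by 0.39 ± 0.07 on the log2 scale (SE, adjusted p = 0.000896). Fau ran from 118 through 137 to 181 CPM in fl/fl and from 155 through 174 to 204 CPM in iADKO, and rose by 0.32 ± 0.10 (SE, adjusted p = 0.0308), with the groups overlapping. Fau lost its call without fl/fl replicate 1, 2, 3 or 6 or iADKO replicate 4 (adjusted p up to 0.0713). The difference in log2 CPM between Mrpl49 and Fau, which no scaling of the library changes, ran from -2.10 to -1.31 in fl/fl and from -2.58 to -2.10 in iADKO, so the groups met only at the edge. The stretch between the starts of this pair and of Mrps11 and Mrpl46, the only pair in which both genes are members, is short enough to print whole. It lies at chr19:6107872-6107922, minus strand, and chr7:78432838-78432866, plus strand, on GRCm39, and capitals would mark an ETS, NRF1 or YY1 core, none of which is in it. The first stretch does hold CCGCCC, the reverse complement of the Sp1 core, left in lower case.
Mrpl49 to Fau: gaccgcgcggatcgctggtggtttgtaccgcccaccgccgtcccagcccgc
Mrps11 to Mrpl46: ccatgaggcaacgcgggccggcgaggggc
Mrps11 and Mrpl46, whose starts are 30 bases apart, had estimates of -0.13 and -0.12, neither called, and differed from each other in log2 CPM by a median of 0.30 in fl/fl and 0.32 in iADKO. Mrpl47 and its partner Ndufb5, a subunit of complex I, did not move alike. Ndufb5 fell by 0.36 ± 0.08 (SE, adjusted p = 0.0058) while Mrpl47 was among the members nearest 0. The difference in log2 CPM between Mrpl47 and Ndufb5 ran from -2.96 to -2.57 in fl/fl and from -2.54 to -2.30 in iADKO, so the groups did not overlap on it. Exons of Mrpl47 and Ndufb5 overlap on opposite strands, as do those of Mrps11 and Mrpl46. With the strand setting of the counting unknown, reads within these pairs may not be told apart.

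Of 5 other proteins of the mitoribosome, which carry different symbols, 3 were called lower. Dap3, a GTP-binding protein of the small subunit, ran from 43.6 to 55.2 CPM in fl/fl and from 35.9 to 41.9 CPM in iADKO without overlap, and fell by 0.38 ± 0.06 (SE, adjusted p = 0.000593). Ptcd3 was called lower at -0.30 and Aurkaip1 at -0.24, the latter a call lost with any of 11 mice left out, all but fl/fl replicate 5 and iADKO replicate 6 (adjusted p up to 0.0845), whereas Gadd45gip1 at -0.06 and Chchd1 at 0.02 were not called. The mitochondrially encoded ribosomal RNAs mt-Rnr1 and mt-Rnr2 were both called lower, at -0.23 and -0.25, with the limit that an mRNA library captures them only in part.

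Factors that build and serve the ribosome had medians below that of all genes. For assembly factors and for the list of aminoacyl-tRNA synthetases, which charge tRNAs, the median was above 0 with libraries scaled by their totals alone, at 0.08 and 0.04. Of 25 assembly factors, 7 were called lower and 1 higher, with a median of -0.12, from Trub2, a pseudouridine synthase, at -0.56 to Rpusd4, a pseudouridine synthase of the large ribosomal RNA, at 0.23. The call of Rpusd4 was lost with any of 9 mice left out, all but fl/fl replicates 5 and 7 and iADKO replicates 1 and 6 (adjusted p up to 0.0956). Of 17 translation factors, 9 were called lower, with a median of -0.24, from Mtrfr, a ribosome rescue factor, at -0.42 to the formyltransferase Mtfmt at 0.02. Of 20 genes listed as mitochondrial aminoacyl-tRNA synthetases, 8 were called lower, with a median of -0.17, from Gatb at -0.49 to Lars2 at 0.23. Gatb is not itself a synthetase but a subunit of an enzyme that modifies a charged tRNA.

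Mitochondrially encoded proteins and nuclear OXPHOS subunits had lower medians than the ribosome itself. Of 13 mitochondrially encoded proteins, 11 were tested and 10 called lower, with a median of -0.77, from mt-Nd3 at -0.97 to mt-Co2 at -0.56. The last, mt-Co2, was not called, but was without fl/fl replicate 5 or iADKO replicate 6 (adjusted p of 0.0183 to 0.0453). Both named extremes had low counts, which limits their estimates. Per library, mt-Nd3 held 4 to 17 counts and mt-Co2 27 to 89, against 221334 to 431053 for mt-Co1. Of 76 nuclear OXPHOS subunits, 58 were called lower, with a median of -0.37, from Sdha at -0.72 to Ndufb2 at 0.12. Their median difference was -0.10 in the animal-number series from 722 to 727 and -0.56 in that from 747 to 750. Within a mouse, the mean log2 CPM of the members minus that of nuclear OXPHOS subunits ran from -1.96 to -1.75 in fl/fl and from -1.83 to -1.67 in iADKO, an overlap with a mean difference of 0.16. The same gap to translation factors was 0.23 in both groups.

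Cytosolic ribosomal protein genes went the other way. Of 75, 70 were called higher, with a median of 0.34, and all 75 estimates were above 0, from Rpl7a at 0.14 to Rpl24 at 0.90. Rpl24 held only 5 to 20 counts per library, which limits its estimate. With the animal-number series as a block, 0 of the 75 were called by edgeR and 66 passed an unadjusted p under 0.05, and with number 765 joined to the 747 to 750 series 48 were called higher. Many of these genes have pseudogenes that could share reads. The mean log2 CPM of the members minus that of cytosolic ribosomal proteins ran from -3.01 through a median of -2.70 to -2.38 in fl/fl and from -3.28 through -3.21 to -3.10 in iADKO. Every iADKO mouse lay below every fl/fl mouse on this gap, fl/fl replicate 5 and iADKO replicate 6 included, and no scaling of the library changes it. The median difference over cytosolic genes was 0.35 in both of the animal-number series that held both genotypes.

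**Figure D4:**
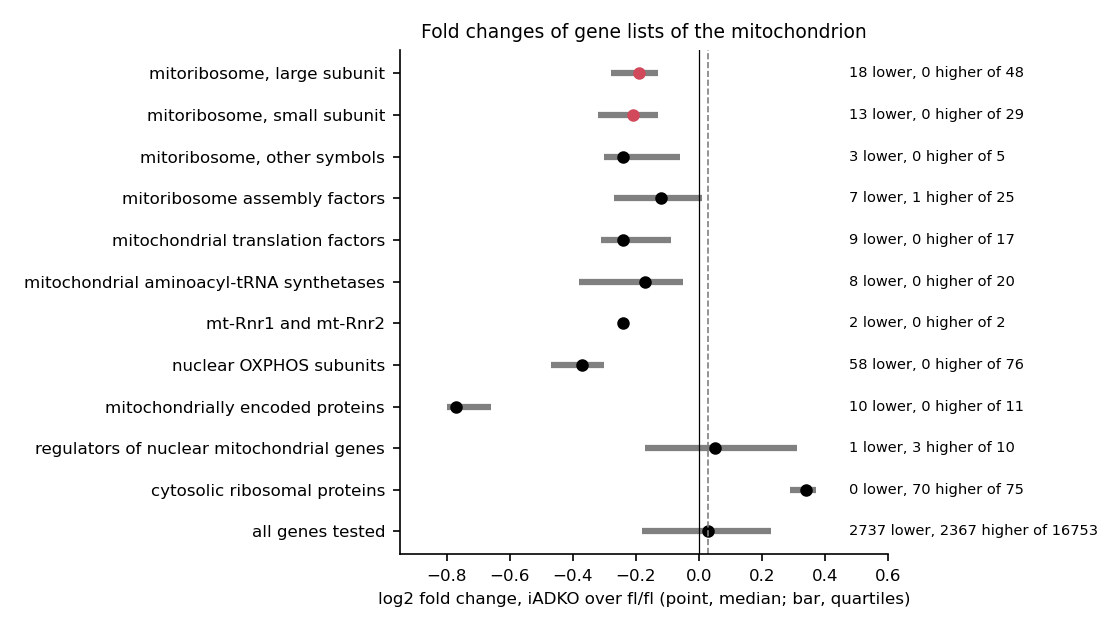
Median log2 fold change (points, x axis, TMM scale) with quartiles (bars) for gene lists of the mitochondrion and of the cytosolic ribosome, with the median of all genes tested as a dashed line and calls at the right. The mitoribosome medians of -0.19 and -0.21 lie between those of all genes, 0.03, and of nuclear OXPHOS subunits, -0.37. With library totals alone every list moves to the right by about the same amount, and the mitoribosome medians lie near 0.

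Among 10 regulators of nuclear genes for mitochondrial proteins, 1 was called lower and 3 higher, named here after their values were seen. Over all genes tested, 16.3% were called lower and 14.1% higher. In a list this small the counts are not read as a result about regulators. Esrra, a nuclear receptor, fell by 0.23 ± 0.06 (SE, adjusted p = 0.0115). Gabpb1, a subunit of GABP, was higher at 0.37 ± 0.06 (SE, adjusted p = 0.00063), Pprc1, a PGC-1-related coactivator, at 0.40 and Myc at 0.54. The other GABP genes listed, Gabpa at 0.03 (adjusted p = 0.648) and Gabpb2 at 0.07 (adjusted p = 0.372), were not called by edgeR. Nor were Nrf1 at 0.15 and Yy1 at 0.01. Ppargc1a, which encodes the coactivator PGC-1α, had the lowest estimate, -0.44 ± 0.20, and was not called (SE, adjusted p = 0.0976), but without iADKO replicate 6 was called lower at -0.65 (adjusted p = 0.00532).

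Markers of several cell types moved with genotype beside these results. All 8 adipocyte markers were called lower, with a median of -0.92 and summed levels of 10984 to 20338 CPM in fl/fl and 7264 to 12192 CPM in iADKO. Of 9 macrophage markers, 7 were called higher, with summed levels of 2032 to 5700 CPM and 3418 to 5891 CPM. T cell markers rose for 2 of 5 (14.0 to 24.9 against 26.7 to 30.7 CPM summed), B cell markers for 2 of 4 (19.7 to 53.1 against 33.9 to 72.6 CPM) and proliferation genes for 4 of 5 (23.8 to 43.0 against 35.4 to 56.3 CPM). Endothelial markers were called lower for 2 of 5 (809 to 1145 against 845 to 978 CPM), thermogenic adipocyte markers for 3 of 5 (28.1 to 124 against 16.2 to 50.6 CPM) and skeletal muscle markers for 1 of 5 (49.8 to 375 against 27.1 to 212 CPM). Of 5 adipose progenitor markers (2750 to 4593 against 2771 to 4577 CPM), 0 were called by edgeR or DESeq2 and 1 passed an unadjusted p under 0.05. Of 5 mesothelial markers (304 to 634 against 362 to 747 CPM), 0 were called by edgeR and 1 by DESeq2, and 2 passed an unadjusted p under 0.05. Myh4 of the muscle list was the only marker at 0 in any library. Relative to adipocyte markers, the mean log2 CPM of the members was higher in iADKO, from -5.31 to -4.80 against -6.02 to -5.54. The part of cell composition in the lower member levels was not tested.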

How the data were processed

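Bulk RNA-Seq of pmWAT was available for 7 fl/fl and 6 iADKO mice, with genotype and replicate number from the sample labels and 1 mouse per library. The authors deposited raw counts per gene, which are not normalized, and log2 values made from them with DESeq2's regularized log (rlog). Per the labels, FastQC 0.12.1, STAR 2.7.11a, DESeq2 and mm39 were used with strand-specific mRNA libraries; the counting tool, its strand setting and the annotation are not given in the sources used here. Of 33618 identifiers, 33184 were found in GENCODE vM39 (release 39), which gave symbols, positions and starts; promoter sequence was read from the GRCm39 genome. Genes were kept by edgeR's filter on low counts, leaving 16753, and tested with edgeR 4.0.16 (quasi-likelihood test, TMM scaling, genotype alone, R 4.3.3) with Benjamini-Hochberg adjustment over all of them. Log2 CPM used a prior count of 2. The fit was tested on simulated data with 200 changed genes. DESeq2 1.42.0 and limma 3.58.1 on the rlog values were alternatives, as were other scalings and filters, blocks and leaving out each mouse. SD is the spread between mice and SE comes from the fit; both include counting error.

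The members, gene lists and tests were chosen with earlier results of these data known. Named members were Lmna, the 10 lowest and 5 highest called log2 fold changes, any called against the majority, the 3 highest levels per kb, the 3 estimates nearest 0 and 10 chosen for their function; lists of mitochondrial and cytosolic ribosome genes gave their lowest and highest member, and those of up to 5 all members. The rule also covered the cell type markers, which are given by counts and summed levels instead. Animal-number series joined numbers under 10 apart.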

Additional observations from a re-analysis of the deposited data

Results flagged for a closer look

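In 22 of 124 groups examined, 1 mouse was far from the others of its group by Dixon's criterion at 95%. By chance the criterion flags about 1 in 20 groups. The groups here share mice and genes, so their flags are not independent and the 22 are not compared with that rate. In most of the 22 flagged groups the mouse was fl/fl replicate 5. Its mean log2 CPM was 4.49 over the large subunit (others 4.76 to 4.89), 4.25 over the small subunit (others 4.49 to 4.65), 6.15 over nuclear OXPHOS subunits, 4.21 over mitochondrial translation factors, 3.84 over assembly factors and 4.26 over mitochondrial aminoacyl-tRNA synthetases. The same mouse was low in log2 CPM for Mrpl16 (4.02), Mrpl49 (5.19), Mrpl55 (3.85), Mrpl58 (4.04), Mrps23 (4.96), Aurkaip1 (5.43), Chchd1 (3.75), Sars2 (2.89), Sdha (8.90), Ndufb5 (6.15) and mt-Nd3 (-0.84).

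In the iADKO group, replicate 6 was high for Mrpl38 (5.37) and Mrpl47 (3.90), and replicate 4 was low for Mtfmt (3.53). Among other controls, fl/fl replicate 6 was low for Mrps18c (1.10) and fl/fl replicate 1 was high for Mrps5 (5.59). The macrophage and adipocyte marker levels of fl/fl replicate 5 and iADKO replicate 6 are given in the report, and their part in these values was not tested.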

How the results depend on the processing

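Counts of large and small subunit genes called lower kept within 1.5 times of the 18 and 13 reported with DESeq2's size factors (19 and 15), with DESeq2's Wald test (20 and 15), without a filter on low counts (17 and 11), with at least 10 counts in every library (18 and 14) and with limma on the rlog values (19 and 14). Scaling by library totals alone gave 5 and 1 lower and 6 members higher, 8673 genes differing in all, and medians of 0.02 for the large subunit, -0.00462 for the small subunit, 0.08 for assembly factors and 0.04 for aminoacyl-tRNA synthetases. In these libraries that scaling moved the median of all genes from 0.03 to 0.24. Log2 fold changes changed sign for Mrpl3, Mrpl58 and Mrps5 (0.02 each), Mrpl44 and Mrps23 (0.19 each), Mrpl45 (0.04) and Mrps12 (0.00642). The same held for Mrps18b (0.13), Mrps18c (0.08), Gadd45gip1 (0.14) and Sars2 (0.05), while Lmna was called higher at 0.40. With the animal-number series as a block, 0 and 0 were lower, with medians of -0.14 and -0.15, and 54 genes differed. With number 765 joined to 747 to 750, 6 and 1 were lower, with medians of -0.19 each, and 1986 genes differed. Under these blocks Mrps18b (0.03), Mrps23 (0.03) and Ndufb2 (-0.00077 and, joined, -0.04) changed sign, as did Mrpl57 when joined (-0.05); the cause was not tested.

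Leaving out 1 mouse gave 15 to 32 large and 10 to 17 small subunit genes lower, with 32 and 17 without fl/fl replicate 5 and 22 and 17 without iADKO replicate 6. Calls over all genes tested ran from 2216 to 3285 lower and from 1769 to 3319 higher. Lmna ranged from 0.15 to 0.24 and was called higher without fl/fl replicate 1 or iADKO replicate 6. Estimates near 0 changed sign among the mice left out: Mrpl44 (-0.05 to 0.02), Mrpl47 (-0.05 to 0.05), Mrpl57 (-0.04 to 0.08), Mrps23 (-0.06 to 0.02), Gadd45gip1 (-0.13 to 0.000814), Chchd1 (-0.03 to 0.06) and Mtfmt (-0.00365 to 0.07). Mrpl47 and Mrpl57 also turned negative with DESeq2's size factors and Wald test (-0.01 each), without a filter (-0.00922 and -0.00968) and with limma (-0.0054 and -0.01).

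Same-numbered mice shared only a number, with correlations of their deviations between -0.0265 and 0.217 and not every mouse closest to its own number. With the replicate block, which leaves out fl/fl replicate 7, 14 large and 10 small subunit genes were lower, 4833 genes differed and Mrpl44 stood at 0.00139.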
